A study of Mus musculus with 8 samples.

Results

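The 10 glucose uptake and glycolysis genes described here are *Slc2a1*, *Slc2a3*, *Hk1*, *Hk2*, *Pfkp*, *Aldoa*, *Pgk1*, *Pkm*, *Ldha* and *Ldhb*. They were taken from the mRNA-seq table by gene symbol, from a list of names drawn up with earlier results of these data known, and fill 11 of its 29092 gene IDs, because *Aldoa* stands under 2 IDs. The libraries came from E13.5 bowel, stomach to anus, of embryos of heterozygous *Ednrb-EGFP* mice crossed with wild-type C57BL/6J mice. The labels give the genotype of every library as wild-type, while the titles name EDNRB-GFP bowel. The *Ednrb-EGFP* transgene marks enteric neural crest-derived cells (ENCDCs), the precursors of the neurons and glia of the bowel. Bowels with GFP were picked under a microscope and dissociated with dispase and collagenase II. GFP+ cells (ENCDCs) and GFP- cells (all other cells of the gut, called gut cells below) were then separated by fluorescence-activated cell sorting. Each population gave 4 libraries, each begun from 750 pg of total RNA, with pooling of samples where one gave too little, so p-values measure the spread between these libraries. Counts per library ran from 13250893 to 13267220.

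Cells take up glucose through facilitative transporters, of which GLUT1 (*Slc2a1*) is widely expressed and GLUT3 (*Slc2a3*) is best known from neurons. Hexokinases trap the sugar as glucose 6-phosphate, phosphofructokinase commits it to glycolysis, and aldolase, phosphoglycerate kinase and pyruvate kinase carry it on to pyruvate with a yield of ATP. Lactate dehydrogenase turns pyruvate into lactate and restores the NAD that the pathway consumes, and embryonic and proliferating cells are known for running this route with oxygen present.

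Most of these genes had more counts in ENCDCs than in gut cells. All 11 gene IDs were tested: 7 were called higher in ENCDCs, 2 lower (*Slc2a1* and *Hk1*) and 2 neither (*Hk2* and the second *Aldoa* ID) at an adjusted p under 0.05 by edgeR's quasi-likelihood test, adjusted over 18866 genes. Over all those genes, 17.0% were called higher, 20.9% lower and 37.9% in either direction. Every ENCDC library stood above every gut library for 7 IDs, against 16.9% of all genes tested, every gut library stood above every ENCDC library for *Slc2a1* alone, against 21.3% of all genes, and the populations overlapped for 3 IDs (38.2% of all genes did not overlap in either direction). The median log2 fold change (ENCDC over gut) was 0.32 over the 11 IDs and -0.04 over all genes tested. Only *Pfkp* and *Pkm* differed by at least 2-fold. Together, the 11 IDs took 0.507, 0.546, 0.585 and 0.523% of the counts of ENCDC replicates 1 to 4 and 0.368, 0.384, 0.362 and 0.380% in gut replicates 1 to 4. These shares averaged 0.540% ± 0.0336 (SD, n = 4) in ENCDCs and 0.373% ± 0.00984 (SD, n = 4) in gut cells, with no overlap. In bulk libraries, fewer cells holding a transcript and less of it per cell cannot be told apart.

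**Figure D1:**
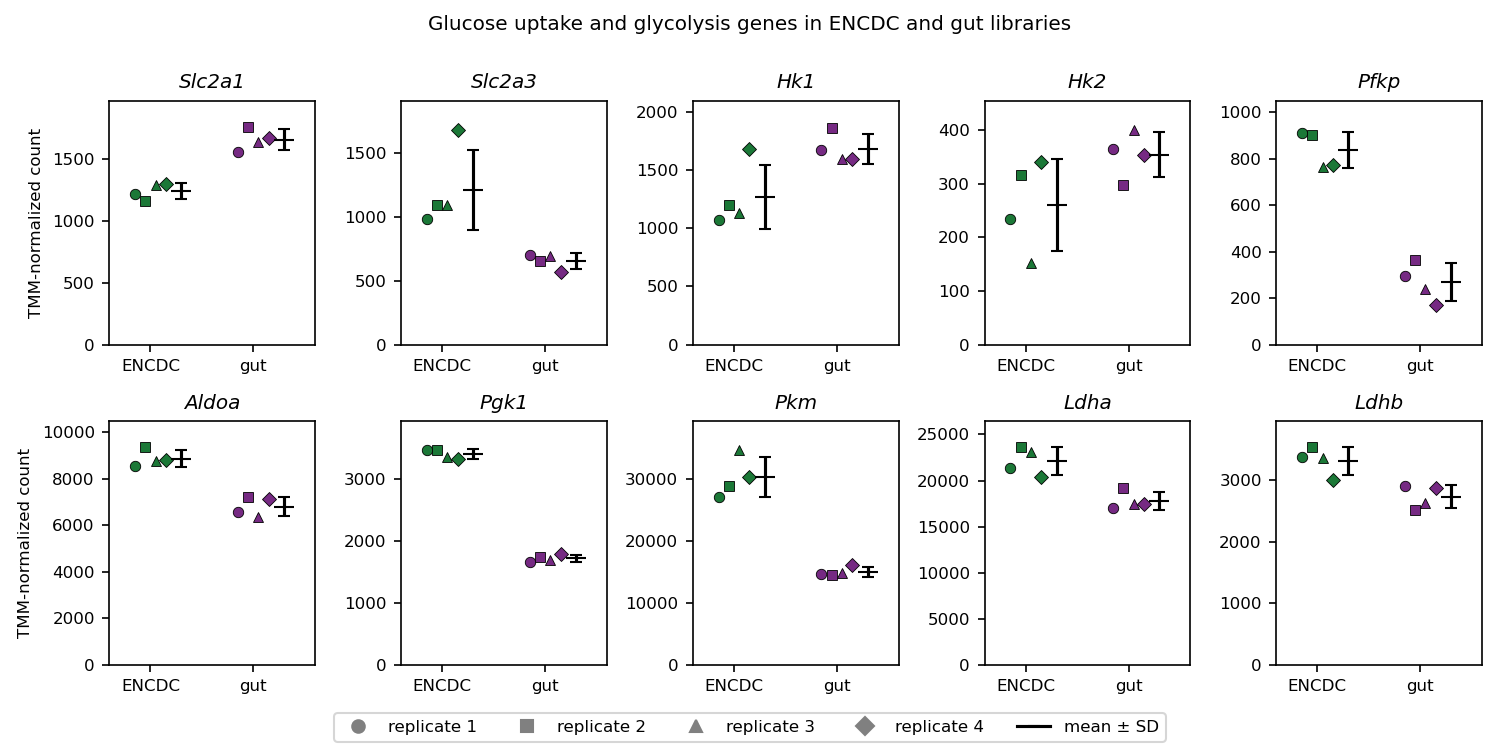
Normalized counts (linear axis from 0, scaled by TMM factors) of the 10 genes in each of the 4 ENCDC and 4 gut libraries; symbols mark replicates, and bars give the mean ± SD. The ENCDC points of *Pfkp*, *Pgk1* and *Pkm* lie far above the gut points, those of *Slc2a1* lie below them, and those of *Hk1* and *Hk2* overlap them.

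Marker genes followed the labels of the sorted populations. All 10 ENCDC and neuron markers examined, among them *Ret* and *Sox10*, were called higher in ENCDCs, while all 8 mesenchyme, all 8 smooth muscle, all 8 erythroid and all 8 macrophage markers were called lower, as were 6 of 8 epithelial, 6 of 8 endothelial and 5 of 6 mesothelial markers (*Kdr*, also an endothelial marker, was higher). ENCDC replicate 3 stood apart from the other ENCDC libraries on the second principal component of the log2 CPM, which held 11.4% of the variance (-116.7 against 30.5 to 43.6). Its smooth muscle markers had a median of 17.0% of their gut level, against 2.39 to 6.27% in the other ENCDC libraries, and its mesenchyme markers 9.12% against 1.77 to 4.71%. Without this library, all members kept their calls except *Hk1* (adjusted p by edgeR 0.0746). Summed erythroid markers were 0.00323 to 0.00856% of counts in ENCDCs and 0.498 to 0.673% in gut cells, and summed mesenchyme markers 0.0222 to 0.158% and 1.16 to 1.55%. The part of these cell types in the values of the glycolysis genes was not tested. Among 8 genes known to respond to dissociation, *Jun* and *Ier2* were called higher and *Fos* lower in ENCDCs.

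Promoter sequences are shown for 4 genes that span the results: *Pgk1* and *Ldha*, called higher, *Pfkp*, with the largest difference of the set, and *Slc2a1*, called lower in ENCDCs. They run from 250 bases before to 50 after an annotated start and come from RefSeq on GRCm38.p6, written 5′ to 3′ on the strand of the gene. Capitals mark ACGTG, a form of the core of the DNA element bound by hypoxia-inducible factors, or its reverse complement CACGT. The other form of this core, GCGTG, was not searched for or marked. The E-box CACGTG, bound by MYC family and other factors, holds both of these, so that the 2 searches overlap. *Pgk1* chrX:106186850-106187149 (+), *Ldha* chr7:46845554-46845853 (+), *Slc2a1* chr4:119108495-119108794 (+) and *Pfkp* chr13:6648722-6649021 (-) read as follows.
Pgk1: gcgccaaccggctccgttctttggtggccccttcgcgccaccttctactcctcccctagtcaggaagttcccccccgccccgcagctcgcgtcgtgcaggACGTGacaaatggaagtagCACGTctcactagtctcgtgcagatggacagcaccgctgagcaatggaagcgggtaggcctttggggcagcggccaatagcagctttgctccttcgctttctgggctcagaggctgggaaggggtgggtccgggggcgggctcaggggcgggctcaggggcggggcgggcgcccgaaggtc
Ldha: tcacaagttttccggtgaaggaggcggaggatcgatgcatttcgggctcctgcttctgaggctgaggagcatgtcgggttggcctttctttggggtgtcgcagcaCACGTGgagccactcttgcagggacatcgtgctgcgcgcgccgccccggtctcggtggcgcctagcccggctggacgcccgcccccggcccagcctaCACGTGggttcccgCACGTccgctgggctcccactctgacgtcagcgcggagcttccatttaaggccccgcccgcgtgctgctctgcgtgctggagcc
Slc2a1: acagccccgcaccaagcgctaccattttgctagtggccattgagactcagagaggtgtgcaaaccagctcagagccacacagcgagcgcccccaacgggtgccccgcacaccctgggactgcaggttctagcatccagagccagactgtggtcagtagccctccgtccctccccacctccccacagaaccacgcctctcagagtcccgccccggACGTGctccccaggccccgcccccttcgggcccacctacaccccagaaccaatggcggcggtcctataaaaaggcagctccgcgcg
Pfkp: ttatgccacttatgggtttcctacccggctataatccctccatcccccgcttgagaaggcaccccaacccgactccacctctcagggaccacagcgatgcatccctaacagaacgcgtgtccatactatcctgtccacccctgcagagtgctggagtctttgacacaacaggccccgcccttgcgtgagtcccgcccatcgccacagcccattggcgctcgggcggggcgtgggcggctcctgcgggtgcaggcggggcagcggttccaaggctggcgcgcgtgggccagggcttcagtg
The *Pgk1* window held ACGTG or CACGT 150 and 131 bases before the start. In the *Ldha* window the letters lay 145, 48 and 34 bases before the start, and the first and second of these were the full E-box. A second *Ldha* promoter, chr7:46846832-46847131 (+), held neither. *Slc2a1* had a single match, 36 bases before the start. The *Pfkp* window held neither ACGTG nor CACGT, though its letters include the unsearched GCGTG. Of the 10 genes, 9 had an entry, with 14 promoters in all. ACGTG or CACGT stood in 8 promoters of 7 genes (*Slc2a1*, *Hk1*, *Hk2*, *Aldoa*, *Pgk1*, *Pkm* and *Ldha*), against 19.6% of 32851 promoters of the same length. This 19.6% is a share of promoters and stands beside the 8 of 14, not the 7 genes. The *Aldoa* windows chr7:126799205-126799504 and chr7:126799129-126799428 overlap and hold the same match, so that a single site counts in both. The E-box was found in the printed *Ldha* window only, against 7.15% of all promoters. Matches therefore stood in genes called higher, in both genes called lower and in *Hk2*, and they describe letters in these windows, not binding.

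Levels of different genes were compared as CPM with TMM factors per kb of merged exons. Among ENCDC libraries the highest level was that of *Ldha*, 504.5 ± 35.0 (SD, n = 4), followed by *Pkm* with 457 ± 48.7, and the libraries of these genes overlapped. Then came *Aldoa* with 230 ± 9.21 (its main ID), *Ldhb* with 160 ± 11.0 and *Pgk1* with 115 ± 2.68 on the same scale. Many stretches of *Pgk1* transcripts also occur in transcripts of other genes, as given below. Its level would be too low here if the counting left out such reads, so its place after *Aldoa* and *Ldhb* is uncertain. The transporters and the enzymes of the first steps were far lower: *Slc2a1* stood at 26.7 ± 1.40, *Slc2a3* at 12.7 ± 3.28, *Hk1* at 11.2 ± 2.46, *Pfkp* at 4.72 ± 0.445 and *Hk2* at 3.29 ± 1.08. Only *Slc2a3* and *Hk1*, besides *Ldha* and *Pkm*, were neighbours whose ENCDC libraries overlapped.

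Gut cells had the same leading genes, with the same measure per kb and a wider gap at the top. Shared stretches left the level and place of *Pgk1* uncertain here too. *Ldha* reached 405 ± 21.8, *Pkm* 227 ± 11.9, *Aldoa* 176 ± 10.7, *Ldhb* 131 ± 9.02 and *Pgk1* 57.9 ± 2.01 (SD, n = 4). Below them stood *Slc2a1* with 35.7 ± 1.82, *Hk1* with 14.8 ± 1.11, *Slc2a3* with 6.83 ± 0.633, *Hk2* with 4.48 ± 0.535 and *Pfkp* with 1.51 ± 0.462, and no neighbours among these 10 overlapped. Dividing by the length of the principal transcript instead, a choice made after seeing the data, swapped *Slc2a3* (23.2) and *Hk1* (24.8) in ENCDCs, where both then overlapped, and swapped *Pfkp* (4.88) and *Hk2* (4.85) in gut cells, where both also overlapped. It also made *Slc2a1* and *Hk1* overlap, at 28.7 and 24.8 in ENCDCs and 38.3 and 32.9 in gut cells, and put *Pfkp* at 15.2 in ENCDCs.

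The 2 glucose transporters differed between the populations in opposite directions. *Slc2a1* (ENSMUSG00000028645, chr4:119108711-119137983, +, mm10) had normalized counts of 1215, 1161, 1289 and 1299.6 in ENCDC replicates 1 to 4 and 1556, 1761, 1639 and 1670.4 in gut replicates 1 to 4. All gut libraries lay above all ENCDC libraries, and the means were 1241 ± 65.2 and 1657 ± 84.4 (SD, n = 4 each). The level was 1.33-fold higher in gut cells, a log2 fold change of -0.42 (SE 0.092, adjusted p by edgeR 0.00424).

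*Slc2a3* (ENSMUSG00000003153, chr6:122727809-122801640, -) had 987, 1097, 1094 and 1682 normalized counts in the ENCDC libraries and 701, 658, 696 and 569 in the gut libraries. All ENCDC libraries were higher, replicate 4 by far the most. The means were 1215 ± 315 and 656 ± 60.7 (SD, n = 4 each), 1.85-fold higher in ENCDCs, with a log2 fold change of 0.89 (SE 0.17, adjusted p by edgeR 0.00172). Without ENCDC replicate 4, *Slc2a3* kept its call, with a log2 fold change of 0.69 (adjusted p by edgeR 0.00159).

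The hexokinases had lower mean counts in ENCDCs. *Hk1* (ENSMUSG00000037012, chr10:62268855-62379908, -), the hexokinase most tissues use, had 1067, 1197, 1128 and 1676 normalized counts among ENCDC libraries and 1673, 1858, 1592 and 1592 among gut libraries. ENCDC replicate 4 lay among the gut libraries, and the other 3 ENCDC libraries lay below all of them. With means of 1267 ± 278 and 1679 ± 126 (SD, n = 4 each), the log2 fold change was -0.41 (SE 0.14, adjusted p by edgeR 0.0442), or 1.33-fold higher in gut cells. This call was lost when any 1 library other than ENCDC replicate 4 was left out (adjusted p by edgeR 0.066 to 0.118), while without ENCDC replicate 4 the log2 fold change was -0.57 (adjusted p by edgeR 0.00216).

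*Hk2* (ENSMUSG00000000628, chr6:82725025-82774454, -), the isoenzyme of muscle, fat and many growing cells, did not pass the test. It had 235, 316, 152 and 339.9 normalized counts among ENCDC libraries and 364, 298, 401 and 353 among gut libraries, and the populations overlapped. Its log2 fold change was -0.44 (SE 0.25, adjusted p by edgeR 0.188). ENCDC replicate 3, which stood apart, had the lowest *Hk2* count.

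*Pfkp* (ENSMUSG00000021196, chr13:6579768-6648777, -), the platelet-type phosphofructokinase that is also abundant in brain, had the largest difference of the set. ENCDC libraries had 909.8, 902, 764 and 775 normalized counts, and gut libraries 295, 365, 239.8 and 172. The lowest ENCDC library was above 2 times the highest gut library. Means were 838 ± 79.0 and 268 ± 82.0 (SD, n = 4 each), 3.12-fold higher in ENCDCs, and the log2 fold change was 1.64 (SE 0.21, adjusted p by edgeR 0.00011). On the opposite strand, *Pitrm1*, which encodes a mitochondrial peptidase, shares 748 bases (5.58%) of the exons of *Pfkp*, and the library kits keep no strand, so reads there cannot be assigned. The mean count of *Pitrm1* was 2738 among ENCDC libraries and 3402 among gut libraries, the opposite direction to *Pfkp*.

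The other phosphofructokinases were not called. *Pfkl*, the liver-type subunit, had 3969 ± 183 normalized counts among ENCDC libraries and 4621 ± 325 among gut libraries (SD, n = 4 each; log2 fold change -0.22, adjusted p by edgeR 0.0542). *Pfkm*, the muscle-type subunit, had 908 ± 123 and 1069.6 ± 198 (log2 fold change -0.24, adjusted p by edgeR 0.248). Among the steps between phosphofructokinase and pyruvate, *Aldoa* (main ID), *Pgk1* and *Pkm* were called higher in ENCDCs, against 17.0% of all genes tested. The second *Aldoa* ID was not called. Other enzymes of these steps went both ways: *Aldoc*, *Gapdh*, *Pgam1* and *Eno1* were called higher, and *Tpi1*, *Eno3* and *Pklr* lower.

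*Aldoa* (ENSMUSG00000030695, chr7:126795234-126800751, -), the main aldolase of muscle and embryonic tissue, had 8522, 9359, 8758 and 8791 normalized counts among ENCDC libraries and 6546, 7190.1, 6347 and 7107 among gut libraries. No libraries overlapped. The means of 8858 ± 355 and 6797 ± 415 (SD, n = 4 each) gave a log2 fold change of 0.38 (SE 0.073, adjusted p by edgeR 0.00185), or 1.30-fold. The second *Aldoa* ID (ENSMUSG00000114515, chr7:126800790-126809108, -), a separate gene model beside the first, had 12.0 to 19.6 normalized counts in ENCDCs and 5.83 to 21.8 in gut cells, and a log2 fold change of 0.00 (SE 0.61, adjusted p by edgeR 1).

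*Pgk1* (ENSMUSG00000062070, chrX:106187100-106203699, +), the first ATP-yielding enzyme of glycolysis, had close replicates in both populations. Normalized counts were 3476, 3474, 3349.8 and 3325 among ENCDC libraries and 1659, 1741, 1688 and 1795 among gut libraries. They averaged 3406 ± 79.8 and 1721 ± 59.9 (SD, n = 4 each), 1.98-fold higher in ENCDCs, with a log2 fold change of 0.98 (SE 0.078, adjusted p by edgeR 2.57e-06). Of all 100-base stretches of *Pgk1* transcripts, 51.6% also occur in transcripts of other genes, mostly of the retrocopies *Pgk1-rs7* and *Gm5537*, so its level is uncertain to the extent that the counting left out or shared such reads.

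*Pkm* (ENSMUSG00000032294, chr9:59656368-59679375, +), the pyruvate kinase of all tissues but liver and red cells, had 27179, 28919, 34729.5 and 30346 normalized counts among ENCDC libraries and 14661, 14475, 14792 and 16194 among gut libraries. Each ENCDC library exceeded each gut library, and replicate 3 was the highest. Means of 30293 ± 3229 and 15031 ± 787 (SD, n = 4 each) gave a 2.02-fold higher level in ENCDCs and a log2 fold change of 1.01 (SE 0.083, adjusted p by edgeR 3.58e-06). Counts per gene do not separate the M1 and M2 isoforms of *Pkm*, and 767 bases (15.3%) of its exons overlap the gene model *Gm49759* on the same strand, which had mean counts of 280.2 and 219.8.

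Both lactate dehydrogenase genes differed by small amounts. *Ldha* (ENSMUSG00000063229, chr7:46841475-46855627, +), the subunit that favours lactate formation, had 21311, 23683, 23132 and 20407 normalized counts among ENCDC libraries and 17049, 19191, 17406.5 and 17489.6 among gut libraries. The lowest ENCDC library was above the highest gut library. Its means were 22133 ± 1534 and 17784 ± 957 (SD, n = 4 each), with a log2 fold change of 0.32 (SE 0.072, adjusted p by edgeR 0.00512), or 1.24-fold.

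*Ldhb* (ENSMUSG00000030246, chr6:142490249-142507957, -), the subunit that favours lactate use, had 3387, 3539, 3366 and 3001 normalized counts among ENCDC libraries and 2906, 2522, 2632 and 2878 among gut libraries. ENCDC replicate 4 and gut replicate 1 came closest, without overlap. The means were 3323 ± 228 and 2735 ± 188 (SD, n = 4 each), 1.22-fold higher in ENCDCs, and the log2 fold change was 0.28 (SE 0.089, adjusted p by edgeR 0.0273). *Ldhb* was no longer called without ENCDC replicate 1 (adjusted p by edgeR 0.0593), ENCDC replicate 2 (0.0711), gut replicate 2 (0.105) or gut replicate 3 (0.0734), and also with median-of-ratios (RLE) factors (0.0526) or no factors (0.067).

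**Figure D2:**
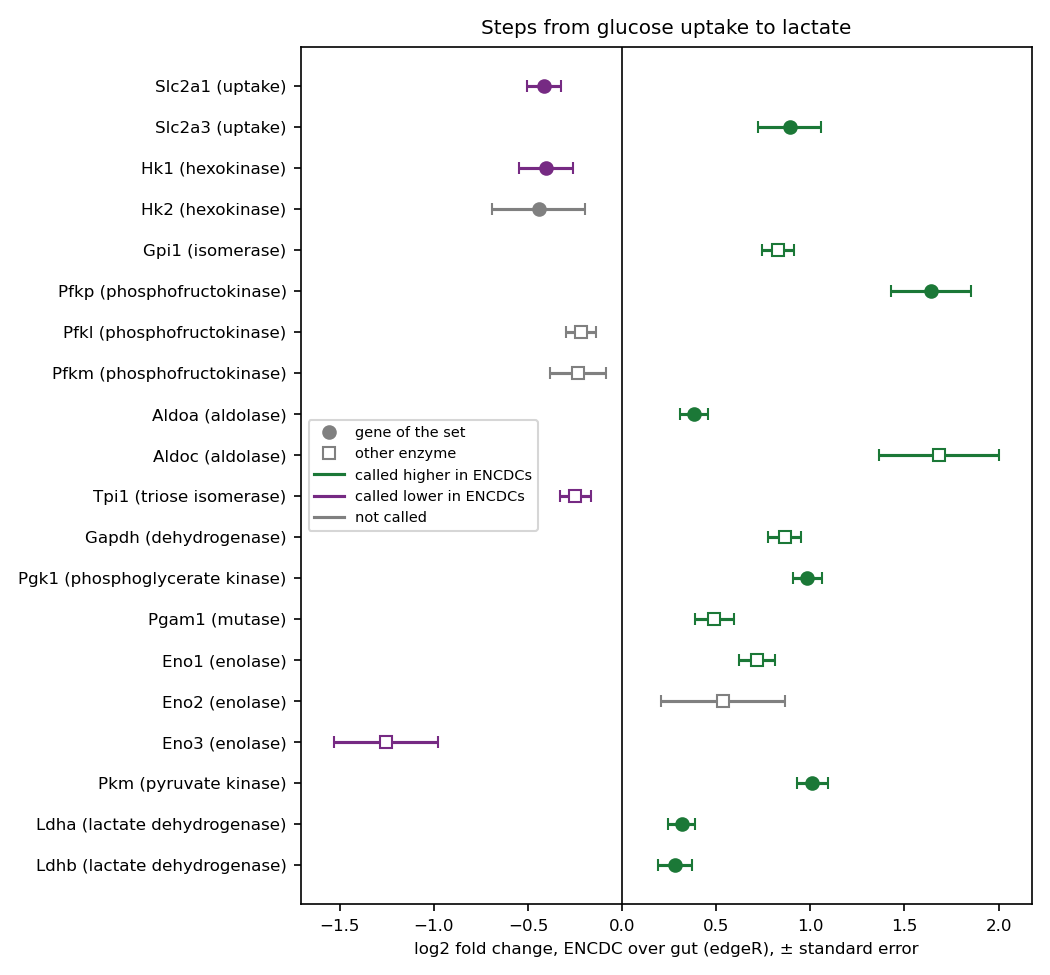
Log2 fold change (ENCDC over gut, linear axis) ± standard error from edgeR for the steps from uptake to lactate; filled circles are the genes of the set, open squares other enzymes of the same steps, and colours give the call. *Slc2a1*, both hexokinases, *Pfkl*, *Pfkm*, *Tpi1* and *Eno3* lie to the left of 0, and *Slc2a3*, *Gpi1*, *Pfkp*, *Aldoc*, *Gapdh*, *Pgk1*, *Eno1* and *Pkm* lie above 0.7.

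Of the other glycolytic enzymes, 18 were tested, of which 5 were called higher and 3 lower, with a median log2 fold change of 0.06, against 17.0% of all genes called higher and 20.9% lower. *Gapdh*, which oxidizes the triose phosphate just before phosphoglycerate kinase, averaged 18303 ± 1604 normalized counts among ENCDC libraries and 10056 ± 948 among gut libraries (SD, n = 4 each; log2 fold change 0.86, adjusted p by edgeR 2.09e-05). *Eno1*, the widespread enolase, averaged 18071 ± 2504 and 10982 ± 536 (0.72, adjusted p by edgeR 0.000139), and *Gpi1*, which turns glucose 6-phosphate into fructose 6-phosphate, 5784 ± 273 and 3254 ± 284 (0.83, adjusted p by edgeR 2.2e-05). *Pgam1* (log2 fold change 0.49) and *Aldoc*, the brain aldolase (1.68), were the other genes called higher. *Gapdh*, *Eno1* and *Pgam1* share 20.9, 20.4 and 33.9% of their 100-base stretches with transcripts of other genes, mostly retrocopies.

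The 3 glycolytic enzymes called lower were *Tpi1*, *Eno3* and *Pklr*. *Tpi1*, the triose phosphate isomerase, averaged 7836 ± 624 among ENCDC libraries and 9310 ± 647 among gut libraries (log2 fold change -0.25, adjusted p by edgeR 0.0364), a call that did not hold without ENCDC replicate 1 or 4 or gut replicate 2, 3 or 4 (adjusted p by edgeR 0.0567 to 0.1) or without the filter on low counts (0.0709). *Eno3*, the muscle enolase, had a log2 fold change of -1.25 (adjusted p by edgeR 0.00429). *Pklr*, the pyruvate kinase of liver and red cells, had counts of 0, 0, 0 and 1 in the ENCDC libraries and 297, 414, 216 and 169 in the gut libraries (adjusted p by edgeR 8.19e-07). It fell with the 8 erythroid markers, whose summed share is given above, and their part in it was not tested.

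Ratios of related genes within a library were compared by an exact two-sided permutation test of log2 ratios, whose smallest possible p for 4 against 4 libraries is 0.0286. In all, 4 ratios were compared. *Slc2a3* counts were 0.812, 0.945, 0.849 and 1.29 times those of *Slc2a1* in ENCDCs and 0.450, 0.374, 0.424 and 0.341 times in gut cells. The populations did not overlap, and the ratio was 2.43-fold higher in ENCDCs (log2 ratio -0.06 ± 0.30 against -1.34 ± 0.18, SD, n = 4 each, exact permutation p = 0.0286). These are ratios of counts, not corrected for length.

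*Pfkp* counts were 0.203, 0.185, 0.149 and 0.154 times those of *Pfkl* and *Pfkm* together in ENCDCs and 0.0497, 0.0709, 0.0406 and 0.0300 times in gut cells. Again no libraries overlapped, and the ratio was 3.77-fold higher in ENCDCs (log2 ratio -2.54 ± 0.22 against -4.46 ± 0.52, SD, n = 4 each, exact permutation p = 0.0286). With these 2 ratios at the smallest possible p, the adjusted p was 0.0571 for each, so neither passed 0.05 after adjustment over the 4 ratios.

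The isoenzyme pairs of the first and the last step had overlapping ratios. *Hk2* counts were 0.134 to 0.264 times those of *Hk1* in ENCDCs and 0.161 to 0.252 times in gut cells (log2 difference -0.08, exact permutation p = 0.743). *Ldhb* counts were 0.146 to 0.159 times those of *Ldha* in ENCDCs and 0.131 to 0.170 times in gut cells (log2 difference -0.03, exact permutation p = 0.743). Both lactate dehydrogenase genes were called higher in ENCDCs, while their ratio differed by less than the spread between libraries.

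**Figure D3:**
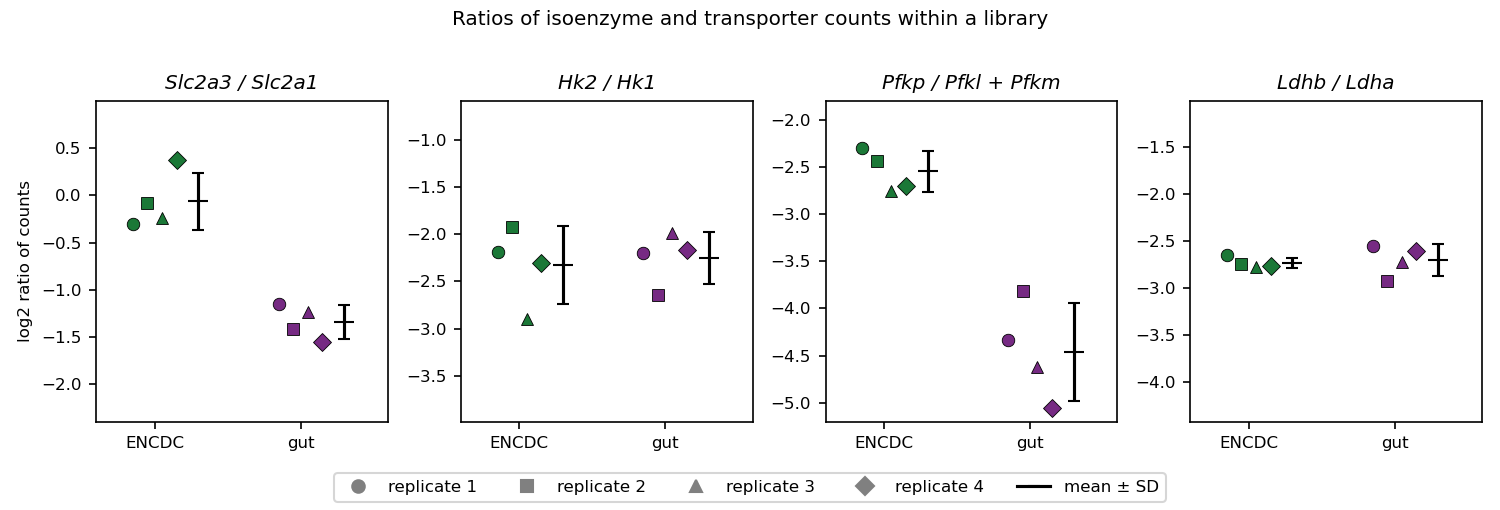
Log2 ratio of counts within each of the 4 ENCDC and 4 gut libraries for 4 pairs of related genes, on axes of equal length that do not start at 0; symbols mark replicates, and bars give the mean ± SD. *Slc2a3* to *Slc2a1* and *Pfkp* to *Pfkl* plus *Pfkm* separate the populations, and *Hk2* to *Hk1* and *Ldhb* to *Ldha* overlap.

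Further genes of sugar metabolism, regulators of glycolytic genes and other genes known to respond to hypoxia were followed in 9 lists. Of 108 genes tested in them, 13 were called higher (12.0%) and 29 lower (26.9%) in ENCDCs. Of these 29, 6 were regulators and 6 were hypoxia-responsive genes. The share called in either direction, 38.9%, was close to the 37.9% over all genes tested, and the counts of the single lists below stand against 17.0% of all genes called higher and 20.9% lower. The 11 other sugar transporters had a median log2 fold change of -1.42, the value of *Slc2a10*, which was not called (adjusted p by edgeR 0.2). *Slc2a6*, *Slc2a8* and *Slc2a13* lay above 0 (1.71, 0.47 and 0.38), none of them called, and the others lay below. No transporter of this list was called higher and 2 were called lower. They were *Slc2a4*, the insulin-responsive GLUT4, which averaged 69.8 ± 30.2 normalized counts among ENCDC libraries and 545 ± 104 among gut libraries (log2 fold change -2.96, adjusted p by edgeR 2.39e-05), and *Slc2a9*, a urate transporter, which had 1 count over the ENCDC libraries and 0 to 21 counts in the gut libraries. Without single libraries *Slc2a9* lost its call (ENCDC replicate 1, 2 or 4; adjusted p by edgeR 0.0607 to 0.0634) or did not reach the count minimum (gut replicate 1, 2 or 3), and with voom and limma its adjusted p was 0.0995.

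Other lists covered genes that draw glucose carbon away from glycolysis or set its rate. Among the 5 genes of the switch that makes and removes fructose 2,6-bisphosphate, the activator of phosphofructokinase, only *Tigar*, a phosphatase that removes it, was called (higher, 223 ± 57.2 against 75.6 ± 18.0, log2 fold change 1.56, adjusted p by edgeR 0.00131). In the pentose phosphate pathway, 8 genes were tested; *Pgls*, the lactonase of its oxidative branch, was higher (log2 fold change 0.47, adjusted p by edgeR 0.00328), and *H6pd*, its endoplasmic reticulum dehydrogenase, was lower (-1.74, adjusted p by edgeR 0.00118). Of 13 glycogen genes 5 were lower and none higher, among them *Ugp2*, which makes UDP-glucose (-0.79), the phosphorylases *Pygb* (-0.59) and *Pygl* (-2.40), and the branching enzyme *Gbe1* (-0.60), which was no longer called without ENCDC replicate 2 (adjusted p by edgeR 0.0572) or gut replicate 4 (0.0659).

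Gluconeogenesis had 4 genes tested. *Pck2*, the mitochondrial form of the enzyme that makes phosphoenolpyruvate, was lower in ENCDCs (431 ± 208 against 1103 ± 99.9 normalized counts, log2 fold change -1.36, adjusted p by edgeR 0.00226). *Fbp1*, the fructose bisphosphatase of liver, was called lower on 1 count over the ENCDC libraries against 0 to 22 in the gut libraries, and *G6pc3*, a widely expressed glucose-6-phosphatase, was called higher (0.43, adjusted p by edgeR 0.0355). Both calls depended on single libraries: that on *G6pc3* was lost without ENCDC replicate 1 or 4 or gut replicate 1, 2 or 3 (adjusted p by edgeR 0.0508 to 0.0957), and that on *Fbp1* without ENCDC replicate 2 or 4 (0.0623 and 0.0608) or, through the count minimum, gut replicate 2, 3 or 4. *Fbp1* was also not called with voom and limma (adjusted p 0.0903), and *G6pc3* not with RLE factors (0.052), no factors (0.055) or no filter (0.0678, all by edgeR).

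At the fate of pyruvate, 3 of the genes called lower encode kinases that switch off pyruvate dehydrogenase. Of 18 genes for lactate and pyruvate carriers and pyruvate dehydrogenase, 2 were higher and 4 lower, with a median log2 fold change of 0.02. *Pdk1* averaged 605 ± 121 normalized counts among ENCDC libraries and 1535 ± 208 among gut libraries (log2 fold change -1.34, adjusted p by edgeR 6.39e-05), and *Pdk3* 659 ± 211 and 1339.7 ± 160 (-1.02, adjusted p by edgeR 0.00253). *Pdk2* and *Pdp1*, a phosphatase that switches the complex on, were the others called lower. *Pdhx*, a structural protein of the complex, was higher (0.49, adjusted p by edgeR 0.0135), as was *Bsg*, the chaperone of lactate carriers (0.27, adjusted p by edgeR 0.0481), whose call was lost without any 1 library except ENCDC replicate 1 (adjusted p by edgeR 0.0605 to 0.116) and with each other setting except voom and limma (0.0639 to 0.106).

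Among 14 regulators of glycolytic genes, 2 were higher and 6 lower in ENCDCs, beside 17.0% and 20.9% of all genes. *Mycn*, a MYC family factor of neural and crest progenitors, averaged 1579.8 ± 173 normalized counts among ENCDC libraries and 449.9 ± 91.6 among gut libraries (log2 fold change 1.81, adjusted p by edgeR 5.58e-06). *Egln1*, an oxygen-sensing prolyl hydroxylase, was called higher (0.42, adjusted p by edgeR 0.0305), but not without ENCDC replicate 1, 2 or 4 or gut replicate 1, 3 or 4 (0.0593 to 0.0834). Its isoenzyme *Egln3* was called lower (-1.94, adjusted p by edgeR 1.25e-05), and *Egln2* was not called (0.02, adjusted p by edgeR 0.939). *Txnip*, which restrains glucose uptake, averaged 1799 ± 256 and 3694 ± 162 (-1.04, adjusted p by edgeR 2.7e-05), and *Arnt*, the partner of hypoxia-inducible factors, was also lower (-0.74, adjusted p by edgeR 0.00375). *Hif1a*, whose protein is set mainly by its breakdown, was not called (3392 ± 158 against 3772 ± 428, log2 fold change -0.15, adjusted p by edgeR 0.24).

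Of 17 other genes known to respond to hypoxia, 6 were lower, 1 was higher and 10 were not called, beside 20.9% of all genes called lower and 17.0% higher. Their median log2 fold change was -0.21. *Vegfa*, which directs vessel growth, averaged 676 ± 101 normalized counts among ENCDC libraries and 1369 ± 99.2 among gut libraries (log2 fold change -1.02, adjusted p by edgeR 0.000102). *P4ha1*, a collagen prolyl hydroxylase (-0.74), and *Ero1l*, an oxidase of the endoplasmic reticulum (-0.54), were lower as well. *Car12*, a cell surface carbonic anhydrase, was the 1 gene called higher (log2 fold change 4.16, adjusted p by edgeR 1.73e-06). It had 1328, 1460.4, 1168 and 1237 normalized counts among ENCDC libraries and 85.5, 25.6, 83.9 and 94.1 among gut libraries.

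**Figure D4:**
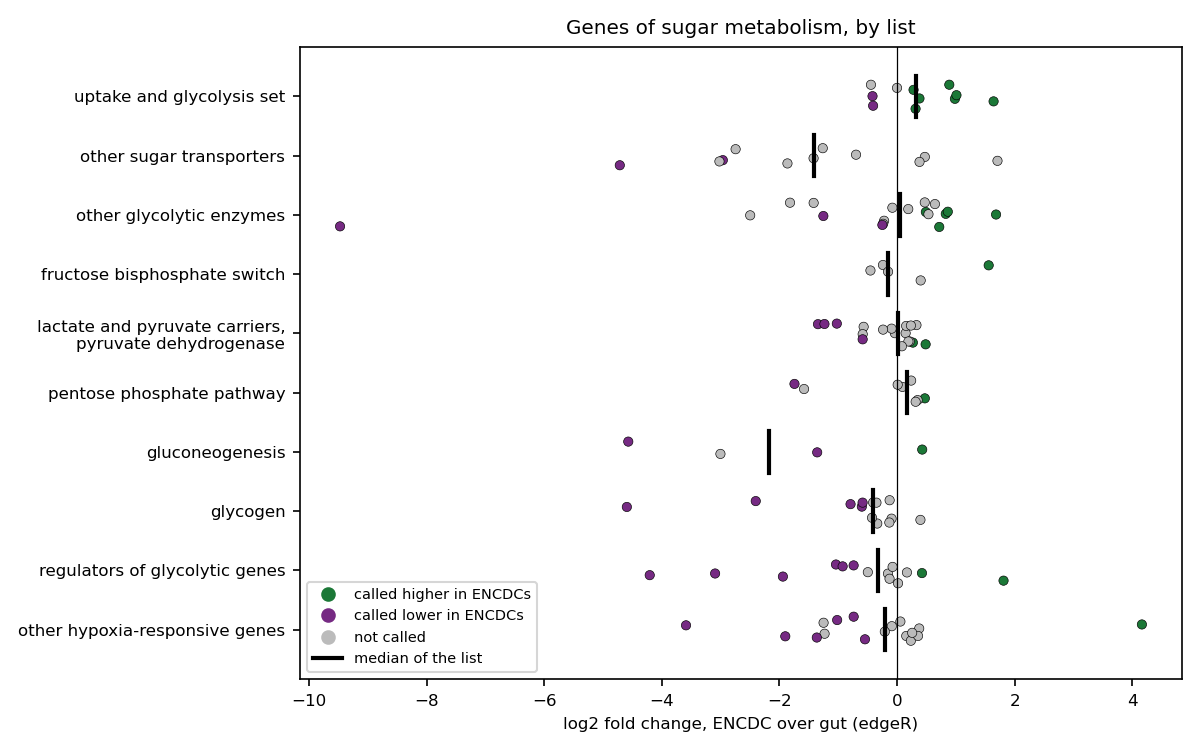
Log2 fold change (ENCDC over gut, linear axis) from edgeR of every tested gene of the set and of 9 further lists. The lists hold genes of sugar metabolism, regulators of glycolytic genes and other hypoxia-responsive genes. Each point is a gene, coloured by its call, and the black line is the median of the list. The medians run from -2.18 for gluconeogenesis to 0.32 for the uptake and glycolysis set. Of the 4 gluconeogenesis genes tested, *Fbp1* and *Fbp2* averaged only 0.254 and 4.57 normalized counts in ENCDCs.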

How the data were processed

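The authors aligned reads to mm10 with STAR 2.4.2a, sampled them down to one depth with PORT and deposited, for each gene, its minimum count after that step, in whole reads. Although the design text names small RNAs and CPM, the title, labels and values are those of mRNA counts. Of 29092 gene IDs, 29035 matched GENCODE M21, which gave positions and exon lengths. Read length is not given in the sources used here.

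Genes were kept if 1 population had a mean of 3 or more counts and a nonzero count in 3 or more of its 4 libraries, and were tested with edgeR 4.0.16 in R 4.3.3 (TMM factors, quasi-likelihood test, Benjamini-Hochberg adjustment over all genes tested, adjusted p under 0.05, no covariate), after a check on simulated data. Normalized counts are counts divided by TMM-scaled library size and multiplied by the mean scaled size. The authors used voom and limma. Alternatives were voom with limma 3.58.1, DESeq2 1.42.0, RLE or no factors, no filter, a mean count of at least 10, a replicate block and leaving out each library. Python 3.11.15, pandas 2.3.3, scipy 1.17.1 and matplotlib 3.10.9 served for ratios, promoters and figures. Promoters were matched by symbol.

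The members and lists were chosen with earlier results of these data known. All members are named. From each list, the text names at most 4 called genes, those of highest mean normalized count, and at most 3 with a mean of at least 100 that went against the direction of most calls. Isoenzymes, overlapping genes and the remaining called genes named beside a small count fall outside this rule and were chosen after their values were seen. No 2 libraries agreed within sampling noise. No set test was run.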

Additional observations from a re-analysis of the deposited data

Results flagged for a closer look

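One value stood far from its group. The normalized count of *Slc2a3* was 1681.83 in ENCDC replicate 4, and its gap to the next ENCDC library was 0.841 of the range of the 4 libraries, above Dixon's 95% critical value for a group of that size. It was the 1 value past that limit among 30 groups of libraries examined, and chance passes it in about 1 in 20 groups. *Hk1* was also highest in this library among the ENCDC libraries.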

How the results depend on the processing

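*Slc2a1*, *Slc2a3*, *Pfkp*, *Aldoa* (main ID), *Pgk1*, *Pkm* and *Ldha* kept their direction and their call under every alternative run. Leaving out 1 library at a time moved their log2 fold changes within -0.45 to -0.38, 0.69 to 0.98, 1.48 to 1.80, 0.35 to 0.40, 0.96 to 1.00, 0.94 to 1.06 and 0.28 to 0.36, respectively. *Hk1* ranged from -0.57 to -0.33 and *Ldhb* from 0.21 to 0.33, with calls lost as given above, so that 6 to 7 members were higher and 1 to 2 lower. *Ldhb* also lost its call with RLE factors (0.24) and with no factors (0.23). *Hk2*, never called, ranged from -0.59 to -0.25 (adjusted p by edgeR 0.0954 to 0.338). The log2 differences of the ratios ranged from 1.13 to 1.36 (*Slc2a3* to *Slc2a1*), -0.21 to 0.11 (*Hk2* to *Hk1*), 1.71 to 2.13 (*Pfkp*) and -0.11 to 0.02 (*Ldhb* to *Ldha*), and with 3 against 4 libraries their smallest p is 0.0571. The cause of the changes was not tested.

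Same-numbered ENCDC and gut libraries showed little joint deviation (r across genes -0.0133 to 0.0318, and 2 of 4 ENCDC libraries correlated best with their own number). With 4 libraries a population, this cannot exclude that same-numbered libraries came from the same bowels. The main test left pairing out. A replicate block gave 2609 genes higher and 3324 lower, against 3212 and 3946. With the block, 1 member was lower, *Hk1* (-0.43, adjusted p by edgeR 0.0544) and *Ldhb* (0.28, adjusted p by edgeR 0.0702) lost their calls, the lactate and pyruvate list had 1 gene higher and gluconeogenesis 0. *Tpi1* (adjusted p by edgeR 0.0617), *Bsg* (0.0875), *Fbp1* (0.137), *G6pc3* (0.058) and *Mlxipl* (0.0558), a glucose-sensing factor, also lost their calls with the block.

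Counts in the lists moved as follows. Other sugar transporters had 1 gene higher with voom and limma and 0 to 1 higher and 1 to 2 lower without single libraries. Lower glycolytic enzymes numbered 6 with voom and limma, 5 with DESeq2, no factors or a mean count of at least 10, and 2 to 6 without single libraries. The lactate and pyruvate list had 1 gene higher with RLE factors, no factors, no filter or a mean count of at least 10, and 1 to 3 without single libraries. The pentose phosphate list had 2 lower with voom and limma or DESeq2, and 1 to 2 higher and 1 to 2 lower without single libraries. Gluconeogenesis had 0 higher with RLE factors, no factors or no filter, 1 lower with a mean count of at least 10, and 0 to 1 higher and 1 to 3 lower without single libraries. Without single libraries, the fructose bisphosphate switch had 0 to 1 lower, glycogen 0 to 1 higher and the regulators 1 to 2 higher. Precision was limited by 4 libraries a population and, for *Slc2a9*, *Fbp1* and the second *Aldoa* ID, by low counts.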
